A study of Mus musculus with 15 samples.

Results

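Cytotoxic effector genes of T cells are described here through 7 members: the granzymes Gzma, Gzmb, Gzmk and Gzmc, the pore-forming protein gene Prf1, the death ligand gene Fasl and the cytokine gene Ifng. They were chosen by name, by matching these symbols in the gene tables the authors deposited, and all 7 were found among the 4567 genes listed in at least 1 of 4 tables, 4423 of which carry a symbol.

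The study asked how T cells with active caspase-1 differ from those without it in acute graft-versus-host disease (aGvHD), in which donor T cells attack the tissues of a transplant recipient. BALB/c mice irradiated with 8 Gy received T cells and bone marrow from C57Bl/6 donors, and on day 7 splenic T cells were sorted with antibodies to CD3, CD4 and CD8 and with FAM-FLICA, a fluorescent dye that labels cells whose caspase-1 is active. Each of 5 groups had 3 libraries of mRNA captured with oligo-dT. The day 7 groups were CD8 cells with the label (Flica-positive), CD8 cells without it (Flica-negative) and CD4 cells without it, and no Flica-positive CD4 cells were sequenced. The 2 control groups were CD4 and CD8 Flica-negative cells of untransplanted, untreated C57Bl/6 mice on day 0, so control and day 7 cells differ in irradiation, host, transplantation and activation all together. The study's methods put donors and recipients at a few weeks of age, and each sort pooled several aGvHD animals but few control animals. The paper gives a low yield of sorted cells as its reason for having no syngeneic transplant group.

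Cytotoxic lymphocytes kill by releasing granules in which perforin opens the way into the target cell for granzymes, a family of serine proteases that cleave proteins there. A separate route runs through Fas ligand on the cell surface, which engages the death receptor Fas on the target, and interferon-gamma is secreted to act on macrophages, antigen-presenting cells and tissue cells. In aGvHD the granule route and Fas ligand are both known as ways in which donor T cells injure host tissue.

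Counts on the listed genes summed to 2143579 to 3184674 in the 12 libraries of the Flica-negative groups, controls included, and to 7310375 to 11046043 in the 3 CD8 Flica-positive libraries. The full depth of the libraries is unknown, because genes that passed the authors' limits in no table have no counts here. Below, all genes means the listed genes. Those limits chose them for change, so medians and shares called over them are not those of every expressed gene. The Flica-positive libraries stood apart in other ways too. Mitochondrially encoded genes took 42.8% to 51.7% of their listed counts, against 15.1% to 28.8% elsewhere, and the 12 neutrophil markers, led by Ngp, summed to between 179600 and 332100 normalized counts, against 10550 to 16360 in CD8 Flica-negative cells. The 7 cytotoxic genes together took 2.64% to 3.07% of listed counts in CD8 Flica-negative libraries and 0.563% to 0.722% in CD8 Flica-positive ones, a share that the large counts of other genes lower. In CD4 Flica-negative libraries it was 0.637% to 0.687%, and in controls 0.0362% to 0.0709%. A normalized count below is a count divided by the library's size factor as recovered from the authors' values, and these factors ran from 0.836 to 0.853 in the Flica-positive libraries. In sorted bulk samples, fewer expressing cells and less RNA per cell cannot be told apart.

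The label of the sorted cells was checked with markers. None of 10 general T cell markers is in any table, so they could not be read. Cd8a averaged 19750 normalized counts in CD8 control, 13870 in CD8 Flica-negative and 10760 in CD8 Flica-positive cells, and 69.4 and 6.43 in CD4 control and CD4 Flica-negative cells. Zbtb7b, a transcription factor of the CD4 lineage, averaged 5673 in CD4 control and 86.6 in CD8 control cells, but 3854 in CD4 Flica-negative, 1695 in CD8 Flica-negative and 1655 in CD8 Flica-positive cells, so it separated the lineages less on day 7. Natural killer cells express most of the cytotoxic genes as well, and 8 of 14 of their markers are in the tables. Of these, Ncr1, a receptor that defines that lineage, had no counts in the 3 CD4 Flica-negative libraries and 4.26, 2.80 and 0 normalized counts in CD8 Flica-negative libraries. In CD8 Flica-positive libraries Ncr1 stood at 32.8, 8.24 and 0, and Klra8, a receptor of some natural killer cells, had no counts in any of them. From CD8 control to CD8 Flica-negative cells the natural killer markers went both ways: 3 fell, with means of Ncr1 from 20.7 to 2.35, Klra8 from 26.8 to 0.288 and Klra9 from 32.7 to 2.42, and 5 were higher, among them Klrb1c (15.9 to 918), Klrb1b (4.11 to 664), Fcer1g (19.5 to 457) and Itga2 (72.3 to 610). The natural killer markers summed to 188 to 288 normalized counts in CD8 control, 160 to 211 in CD4 control, 1165 to 1365 in CD4 Flica-negative and 2626 to 2868 in CD8 Flica-negative libraries. In CD8 Flica-positive libraries the sum was 3555 to 5478, with Fcer1g and Tyrobp, which myeloid cells also express, higher in Flica-positive cells and Klrb1c and Itga2 lower.

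**Figure D1:**
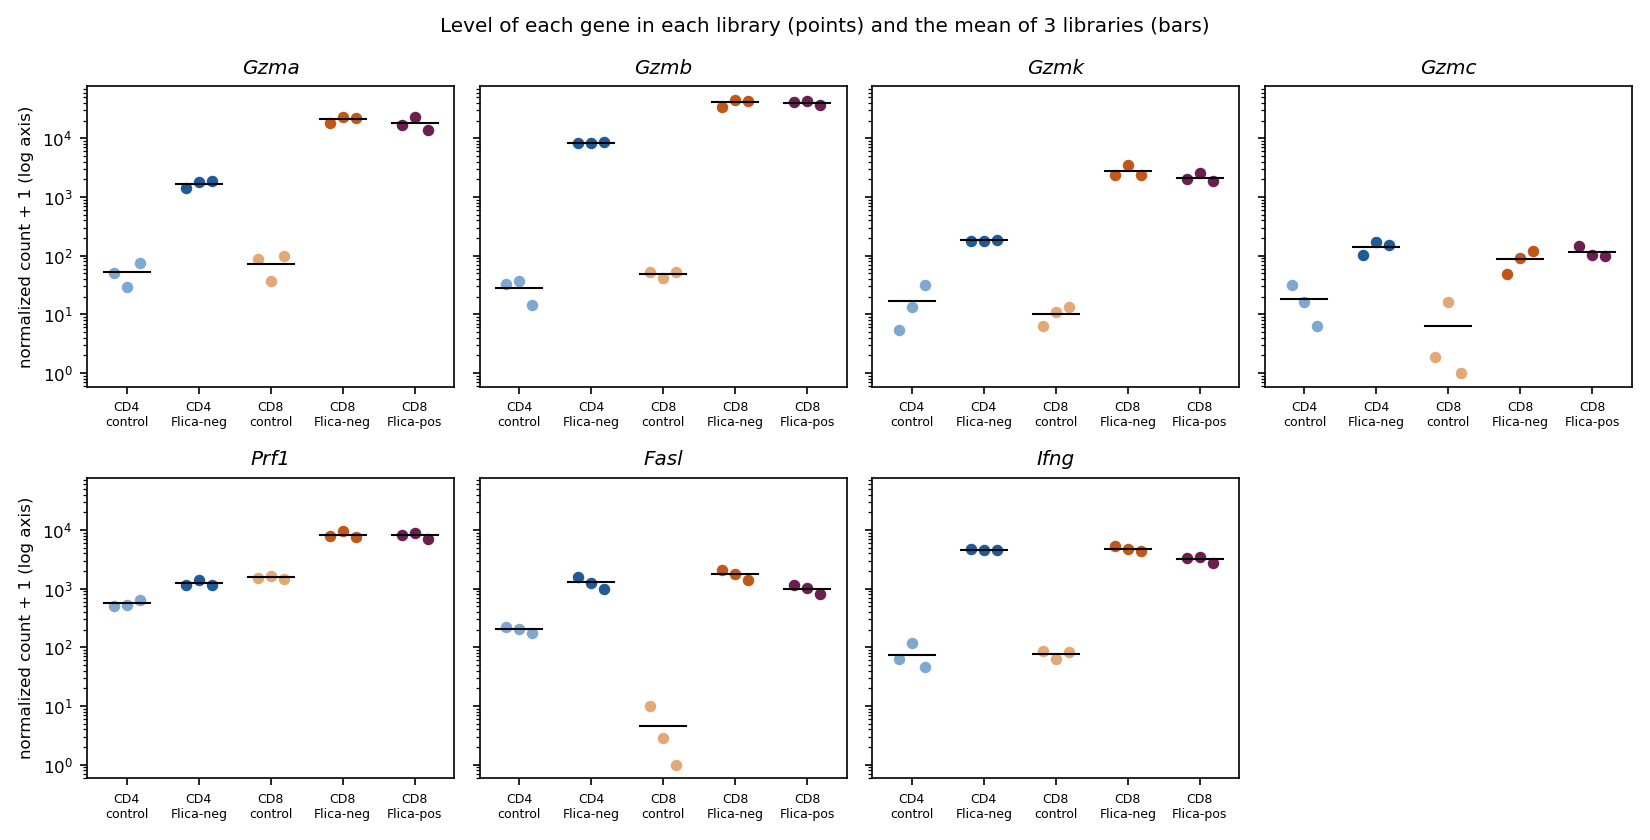
Normalized counts plus 1, on a log axis, of the 7 genes in each of 15 libraries (points, replicates 1 to 3 from left to right) and the group mean (bars), for CD4 control, CD4 Flica-negative, CD8 control, CD8 Flica-negative and CD8 Flica-positive cells. Gzmb averages 40953 in CD8 Flica-negative and 40297 in CD8 Flica-positive cells with overlapping points, and Fasl in CD8 control cells spans 0 to 8.81.

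Gzmb (ENSMUSG00000015437, GRCm38 chr14:56258838-56262260, minus strand) encodes granzyme B, a protease that cleaves after aspartate and can activate caspases in the target cell. CD8 control libraries had 51.1, 40.3 and 51.0 normalized counts of Gzmb, CD8 Flica-negative libraries 34448, 45578 and 42834, and CD8 Flica-positive libraries 41045, 43149 and 36696. The Flica-positive and Flica-negative values overlapped, and both lay far above every control library. CD4 control libraries had 32.4, 36.7 and 13.3 normalized counts of Gzmb and CD4 Flica-negative libraries 8309, 8169 and 8577, with replicates that differed little. Gzmb was 861-fold higher in CD8 Flica-negative cells than in CD8 control cells (log2 fold change 9.75, SE 0.19, edgeR adjusted p 3.2e-10) and 847-fold higher in CD8 Flica-positive cells (log2 fold change 9.73, SE 0.25, edgeR adjusted p 2.2e-07). It had the smallest p of all 4556 and 4564 genes tested in these comparisons. In CD4 cells Gzmb was 306-fold higher on day 7 than in controls (log2 fold change 8.26, SE 0.32, edgeR adjusted p 2.1e-09), rank 8 by p among 4517 genes. CD4 Flica-negative cells nonetheless held 4.90-fold less Gzmb than CD8 Flica-negative cells (log2 fold change -2.29, SE 0.12, edgeR adjusted p 8.7e-11).

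Gzma (ENSMUSG00000023132, chr13:113093825-113100981, minus strand) encodes granzyme A, a protease that cleaves after basic residues. Its normalized counts were 85.5, 35.8 and 96.2 in CD8 control libraries, 18480, 23554 and 22593 in CD8 Flica-negative libraries and 17139, 22869 and 13938 in CD8 Flica-positive libraries. The Flica-positive libraries spread more (SD 4525 around 17982) than the Flica-negative ones (SD 2695 around 21542), and the ranges overlapped. In CD4 cells Gzma stood at 50.2, 28.0 and 74.7 in control and 1427, 1818 and 1852 in Flica-negative libraries. Against controls Gzma was 297-fold higher in CD8 Flica-negative cells (log2 fold change 8.22, SE 0.36), 248-fold in CD8 Flica-positive cells (7.95, SE 0.46) and 33.1-fold in CD4 Flica-negative cells (5.05, SE 0.33), with edgeR adjusted p of 4.4e-08, 4.9e-06 and 7.8e-08. The gap between the lineages on day 7 was wider than for Gzmb: CD4 Flica-negative cells had 12.7-fold less Gzma than CD8 Flica-negative cells (log2 fold change -3.66, SE 0.15, edgeR adjusted p 1.6e-12), rank 2 by p of 4483 genes.

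Gzmk (ENSMUSG00000042385, chr13:113171608-113225908, minus strand) encodes granzyme K, a protease close in specificity to granzyme A, and lies 70.6 kb from Gzma with 0 coding genes between them. Its normalized counts were 5.29, 9.85 and 12.5 in CD8 control libraries, 2403, 3577 and 2405 in CD8 Flica-negative libraries and 2029, 2565 and 1842 in CD8 Flica-positive libraries. CD4 control libraries had 4.47, 12.6 and 31.1 and CD4 Flica-negative libraries 179, 181 and 183, the tightest group of any of the 7 genes (coefficient of variation 1.23%). Against controls, Gzmk was 302-fold higher in CD8 Flica-negative (log2 fold change 8.24, SE 0.36), 231-fold in CD8 Flica-positive (7.85, SE 0.39) and less so in CD4 Flica-negative cells (3.46, SE 0.57), with edgeR adjusted p of 4.4e-08, 3.0e-06 and 0.000231. The CD4 value leaned on CD4 control replicate 3, without which it was 4.37 (20.6-fold). Of the 7 genes Gzmk showed the widest gap between the day 7 lineages, 15.4-fold lower in CD4 than in CD8 Flica-negative cells (log2 fold change -3.95, SE 0.22, edgeR adjusted p 1.3e-10).

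Gzmc (ENSMUSG00000079186, chr14:56231441-56234656, minus strand) encodes granzyme C and lies 24.2 kb from Gzmb, again with 0 coding genes between them. Its counts were low on day 7 too, with raw values of 45, 98 and 137 in CD8 Flica-negative, 124, 85 and 81 in CD8 Flica-positive and 115, 151 and 189 in CD4 Flica-negative libraries. In controls its raw counts were 1, 17 and 0 (CD8) and 28, 16 and 6 (CD4). The day 7 groups overlapped each other, and all of them lay above the controls. Gzmc was higher than in controls in CD8 Flica-negative cells (log2 fold change 3.96, SE 1.05, edgeR adjusted p 0.00721), CD8 Flica-positive cells (4.37, SE 1.33, edgeR adjusted p 0.0180) and CD4 Flica-negative cells (3.03, SE 0.59, edgeR adjusted p 0.000853). The size rests on single control libraries. Without CD8 control replicate 2, which held most of its CD8 control counts, the log2 fold changes were 7.23 in CD8 Flica-negative and 7.60 in CD8 Flica-positive cells. Without CD8 control replicate 1 the Flica-positive value was 3.88 and missed the threshold (edgeR adjusted p 0.0527, range over the alternatives 0.00083 to 0.101), and without CD4 control replicate 1 the CD4 value was 3.75. Gzmc alone among the 4 granzymes had its highest mean in CD4 cells, 140 ± 34.9 (SD, n = 3) against 85.9 ± 35.5 in CD8 Flica-negative cells, but that difference did not pass the test (log2 fold change 0.70, SE 0.39, 95% interval -0.058 to 1.47, edgeR adjusted p 0.217, 0.107 to 0.631 over the alternatives). Part of its sequence is not unique: 4.14% of its 50-base windows also occur in transcripts of other granzymes, against 0% for Gzma, Gzmb and Gzmk.

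Since the 4 granzymes share each library's scale, their proportions do not depend on how libraries are scaled. Per kb of exon, Gzmb made up 74.7% of the mRNA of the 4 granzymes in CD4 Flica-negative cells (72.8% to 77.7%), 54.8% in CD8 Flica-negative cells (54.3% to 55.1%) and 59.3% in CD8 Flica-positive cells (54.9% to 62.6%). Gzma made up 21.6%, 41.2% and 37.2% in the same order. The CD4 and CD8 Flica-negative ranges were apart for both genes, with an exact two-sided permutation p of 0.1, the smallest that 3 against 3 libraries can give. Within CD8 cells the ranges of the 2 Flica groups overlapped (exact permutation p 0.3 for both genes). In control cells, where each granzyme had few counts, Gzma led on average, with 58.9% in CD8 and 48.8% in CD4 cells, and Gzmb ranged from 8.30% to 32.1% across the 6 libraries.

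**Figure D2:**
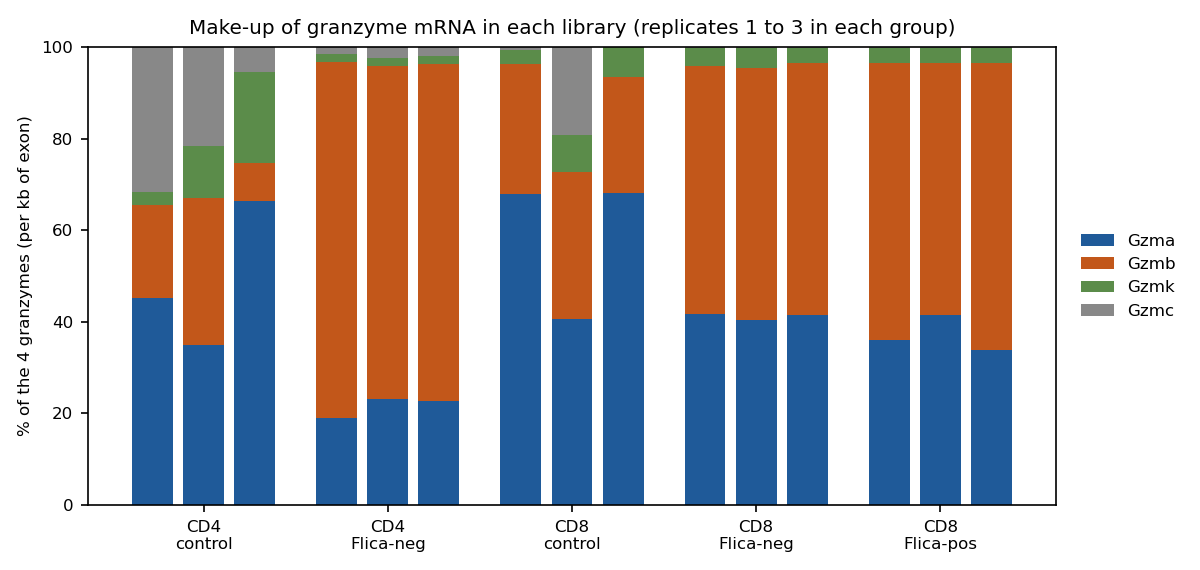
Stacked bars give each granzyme's percentage of the 4 granzymes together, per kb of exon, in each of 15 libraries, grouped as CD4 control, CD4 Flica-negative, CD8 control, CD8 Flica-negative and CD8 Flica-positive cells. Gzmb takes 72.8% to 77.7% in CD4 Flica-negative and 54.3% to 55.1% in CD8 Flica-negative libraries.

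Prf1 (ENSMUSG00000037202, chr10:61297833-61304680, plus strand) encodes perforin. Unlike the granzymes it was plentiful in cells of untreated mice, at 1538, 1642 and 1447 normalized counts in CD8 control and 511, 519 and 647 in CD4 control libraries. CD8 Flica-negative libraries had 7804, 9480 and 7701, CD8 Flica-positive libraries 8152, 8824 and 7087, and CD4 Flica-negative libraries 1156, 1381 and 1144. Every CD4 Flica-negative library therefore lay below every CD8 control library, so CD4 cells on day 7 held less Prf1 than CD8 cells of untreated mice, a pair of groups that was not tested against each other. Against controls Prf1 was 5.40-fold higher in CD8 Flica-negative (log2 fold change 2.43, SE 0.15, edgeR adjusted p 3.8e-07), 5.20-fold in CD8 Flica-positive (2.38, SE 0.19, 1.6e-05) and 2.19-fold in CD4 Flica-negative cells (1.13, SE 0.20, 0.000324). Prf1 is absent from the authors' CD4 table, whose limit is an absolute log2 fold change above 2. Between lineages it was 6.79-fold lower in CD4 than in CD8 cells on day 7 (log2 fold change -2.76, SE 0.16, edgeR adjusted p 1.8e-10) and 2.76-fold lower in controls (-1.46, SE 0.18, edgeR adjusted p 4.9e-08). Per kb, Prf1 led the 7 genes in both control groups (597 in CD8, 216 in CD4), while on day 7 other genes of the 7 stood above it in every group. The ratio of Gzmb to Prf1 per kb was 0.0442 to 0.0634 in CD8 control libraries and 7.94 to 10.0 in CD8 Flica-negative libraries, and it went from 0.0371 to 0.127 in CD4 control to 10.6 to 13.5 in CD4 Flica-negative libraries.

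Fasl (ENSMUSG00000000817, chr1:161780689-161788495, minus strand) encodes Fas ligand, and it was the one gene of the 7 whose control level set the lineages far apart. CD4 control libraries had raw counts of 197, 213 and 196 and CD8 control libraries 10, 2 and 0, so the CD8 control value hangs on a handful of reads. On day 7 its normalized counts were 1585, 1237 and 998 in CD4 Flica-negative, 2065, 1780 and 1378 in CD8 Flica-negative and 1164, 1002 and 811 in CD8 Flica-positive libraries. Fasl was thus 53.7-fold higher in CD4 than in CD8 control cells (log2 fold change 5.75, SE 0.58, edgeR adjusted p 6.0e-10), rank 72 by p of 4322 genes, while on day 7 the lineages overlapped (CD4 against CD8 Flica-negative -0.45, SE 0.21, 95% interval -0.85 to -0.049, edgeR adjusted p 0.128). Without CD8 Flica-negative replicate 3 that day 7 difference was -0.59 and just passed (edgeR adjusted p 0.0497, range over the alternatives 0.0018 to 0.438). It also passed with replicate number as a block (-0.46, edgeR adjusted p 0.0018), and in each of the 3 same-number pairs the CD4 library was the lower one. Against controls, Fasl was 6.36-fold higher in CD4 Flica-negative cells (log2 fold change 2.67, SE 0.24, edgeR adjusted p 8.9e-07), 466-fold in CD8 Flica-negative (8.86, SE 0.62, 9.1e-07) and 266-fold in CD8 Flica-positive cells (8.05, SE 0.80, 4.2e-05). Leaving out CD8 control replicate 1, which held 10 of the 12 control counts, moved these CD8 values to 10.71 and 9.88 and the comparison of the controls to 7.58.

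Ifng (ENSMUSG00000055170, chr10:118441046-118445892, plus strand) encodes interferon-gamma. Its normalized counts were 85.5, 62.7 and 80.8 in CD8 control and 61.4, 115 and 45.4 in CD4 control libraries. They reached 4651, 4536 and 4616 in CD4 Flica-negative and 5207, 4741 and 4357 in CD8 Flica-negative libraries, and 3250, 3435 and 2690 in CD8 Flica-positive ones. The lineages overlapped in controls and, among Flica-negative cells, on day 7, while the CD8 Flica-positive values lay below both Flica-negative groups. The rise over controls was 62.2-fold in CD4 (log2 fold change 5.96, SE 0.32, edgeR adjusted p 1.7e-08) and 62.4-fold in CD8 Flica-negative cells (5.96, SE 0.22, 1.3e-08), and 40.9-fold in CD8 Flica-positive cells (5.35, SE 0.27, 3.0e-06). Between the lineages the log2 fold change of Ifng was -0.052 on day 7 (95% interval -0.32 to 0.22, edgeR adjusted p 0.829) and -0.045 in controls (-0.91 to 0.82, edgeR adjusted p 0.972).

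The comparison that bears on caspase-1 is CD8 Flica-positive against CD8 Flica-negative cells, and none of the 7 genes is in the authors' table for it. In the paper's flow cytometry most Flica-positive T cells took up a dye that enters cells with damaged membranes. Flica-negative cells took up little or none, so the groups may differ in viability too. The paper also shows Flica-positive cells labelled as recipient cells. The part of either in the values below was not tested. By the edgeR quasi-likelihood test, 2 of the 7 were lower in Flica-positive cells and 0 higher, beside 2.72% of all 4478 genes tested that were lower. At an unadjusted p below 0.05, and by DESeq2, the counts were again 2 and 0. Fasl averaged 992 ± 177 (SD, n = 3) normalized counts with the label and 1741 ± 345 without it, 57.0% of the Flica-negative level, with no overlap between libraries (log2 fold change -0.81, SE 0.24, edgeR adjusted p 0.0258). Ifng averaged 3125 ± 388 and 4769 ± 426, 65.5% of the Flica-negative level, again with no overlap (-0.61, SE 0.20, edgeR adjusted p 0.0420). The other members' ranges overlapped, although in each of the 3 same-number pairs Gzma and Gzmk were lower in the Flica-positive library. With the recovered size factors the 95% interval of the log2 fold change, which covers no other scaling, was -0.38 to 0.33 for Gzmb (estimate -0.023), -0.43 to 0.32 for Prf1 (-0.054), -0.68 to 0.16 for Gzma (-0.26), -0.84 to 0.076 for Gzmk (-0.38) and -0.60 to 1.41 for Gzmc (0.41). Whether the fold change of Fasl or Ifng differs from that of the granule genes was not tested.

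Both calls depended on the libraries used. Without Flica-positive replicate 2 or 3, or without Flica-negative replicate 1 or 2, neither gene passed: Fasl stood at -0.82, -0.68, -0.67 and -0.79 (edgeR adjusted p 0.0800, 0.0681, 0.0823 and 0.0961) and Ifng at -0.68, -0.51, -0.54 and -0.61 (0.0780, 0.0772, 0.114 and 0.131). Without Flica-positive replicate 1 or Flica-negative replicate 3, Fasl passed and Ifng did not (-0.64 and -0.67, edgeR adjusted p 0.0557 and 0.0583). Over the alternatives the edgeR or DESeq2 adjusted p ran from 0.00232 to 0.0981 for Fasl, which passed in 6 of 11, and from 0.00275 to 0.131 for Ifng, which passed in 4 of 11, while the log2 fold change was negative in all 11 for both. With replicate number as a block, Fasl stood at -0.81 and Ifng at -0.61 (edgeR adjusted p 0.00294 and 0.0113).

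The calls also moved with the scaling. TMM takes most genes to be unchanged, whereas the listed genes are those that passed limits of change in at least 1 comparison. Its values show how far calls depend on scaling, and which scaling is nearer the truth was not tested. TMM factors computed over the listed genes shifted the all-gene median by -0.553 (log2) in this comparison, and turned the calls over all genes from 946 higher and 122 lower into 738 higher and 458 lower (10.2% lower). Under TMM Fasl was at -1.41 and Ifng at -1.20, Gzma (-0.82, edgeR adjusted p 0.0285) and Gzmk (-0.96, 0.0125) were also called lower, and Gzmc changed sign to -0.10 without being called. Gzmb (-0.59) and Prf1 (-0.63) moved by about the shift of the median and were not called. The shift was -1.65 for CD8 Flica-positive, -0.435 for CD8 Flica-negative and -0.235 for CD4 Flica-negative cells against controls, where each of the 7 kept a positive sign. In CD8 Flica-positive cells against controls TMM gave 8.09 for Gzmb, 6.33 for Gzma, 6.23 for Gzmk, 6.45 for Fasl and 3.72 for Ifng, so the folds given above for this comparison depend on the scaling. It changed the calls over all genes there from 2138 higher and 1093 lower to 1232 and 1610, from 1713 and 1324 to 1515 and 1449, and from 1426 and 1212 to 1310 and 1304. Prf1 in CD8 Flica-positive cells then stood at 0.74 (edgeR adjusted p 0.0408), and Gzmc lost its call.

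A ratio to Cd8a within a library needs no scaling, and it was computed after the scaling had been seen to matter. Per 1000 counts of Cd8a, Flica-positive libraries had 3590, 3750 and 3930 counts of Gzmb and Flica-negative libraries 2490, 3050 and 3340. For Prf1 they had 713, 768 and 758 against 564, 633 and 601. On this measure Gzmb and Prf1 were higher in Flica-positive cells without overlap. Fasl stayed lower, at 102, 87.2 and 86.7 against 149, 119 and 108, and so did Ifng, at 284, 299 and 288 against 376, 317 and 340. These 4 had an exact permutation p of 0.1, the smallest possible with 3 against 3, and Gzma, Gzmk and Gzmc overlapped (exact permutation p 0.7, 1.0 and 0.2). Cd8a itself was not called between the groups (log2 fold change -0.37, SE 0.19, edgeR adjusted p 0.169), but under TMM it was (-0.95, edgeR adjusted p 0.0107).

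Markers of other cells moved with this comparison. All 12 neutrophil markers were higher in Flica-positive cells (median log2 fold change 4.26, beside 0.412 over all genes), as were 6 of 7 listed macrophage and monocyte markers of 10, 5 of 5 listed mast cell and basophil markers of 12, 5 of 5 listed erythroid markers of 8 and 3 of 6 B cell markers. The macrophage and monocyte markers, led by Lyz2, summed to 16380 to 34620 normalized counts, against 916 to 1940 in Flica-negative libraries, the erythroid markers, led by Hba-a1, to 1393 to 110400 against 272 to 3555, and the mast cell and basophil markers, led by Prss34, to 1408 to 2320 against 80.3 to 147. The B cell markers summed to 353 to 603 against 137 to 191. Of 5 plasmacytoid dendritic cell markers, 2 are listed and 1 was higher. Over all genes tested 21.1% were called higher in this comparison, and 16.5% under TMM. Under TMM the 12 neutrophil, 6 macrophage and monocyte, 5 mast cell and basophil and 5 erythroid markers still counted as higher, as did 2 of the B cell markers and 0 of the plasmacytoid ones (0 also at an unadjusted p below 0.05 in that edgeR fit; 1 by DESeq2). The part of these cells in the lower Fasl and Ifng values was not tested.

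Against their controls, 7 of 7 genes were higher in CD8 Flica-positive cells (46.8% of all 4564 genes tested were), 7 of 7 in CD8 Flica-negative cells (37.6% of 4556) and 7 of 7 in CD4 Flica-negative cells (31.6% of 4517). Since 6 of the 7 are listed in each of these tables and Prf1 in both CD8 ones, the authors' own limits had already selected them for these differences, so the counts are a description. Markers of other cells moved in these comparisons as well. In CD8 Flica-negative cells 11 of 12 neutrophil markers were higher than in controls (median log2 fold change 8.17, or 7.7 with genes at 0 set to the floor of 3 counts), 5 of 8 natural killer markers were higher and 3 lower, and 6 of 6 B cell markers were lower (median -7.48, or -7.42 with the floor, with a mean sum of 172 normalized counts against 5716). In CD4 Flica-negative cells 10 of 12, 4 of 8 and 0 of 6 were higher and 0, 2 and 6 lower, and in CD8 Flica-positive cells 12, 5 and 0 higher and 0, 2 and 6 lower, by edgeR; for B cell markers the count of 0 higher also held at an unadjusted p below 0.05 and the 6 lower under TMM. In CD8 Flica-positive cells 7 of 7 macrophage and monocyte, 5 of 5 mast cell and basophil and 1 of 5 erythroid markers (5 by DESeq2) were higher too. In CD8 Flica-negative cells 2, 2 and 0 of these were higher (0 erythroid markers also at an unadjusted p below 0.05 by edgeR). There 1 erythroid marker was lower by edgeR, 4 under TMM or at an unadjusted p below 0.05, and 0 by DESeq2. In CD4 Flica-negative cells 1, 2 and 0 were higher, and 4 erythroid markers were lower by edgeR, under TMM and by DESeq2. The part of such cells in the levels of the 7 genes was not tested. The CD8 Flica-positive and Flica-negative comparisons share the 3 CD8 control libraries. Within them the order of fold changes was led by Gzmb and ended with Gzmc and Prf1, but it turned on single libraries. Without CD8 control replicate 1 Fasl (10.71 in Flica-negative, 9.88 in Flica-positive cells) stood above Gzmb (9.81 and 9.78), and without CD8 control replicate 2 Gzmc (7.23 and 7.60) stood above Ifng (5.84 and 5.23). In CD4 cells Gzmb led too, followed by Ifng, with Fasl and Prf1 last.

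**Figure D3:**
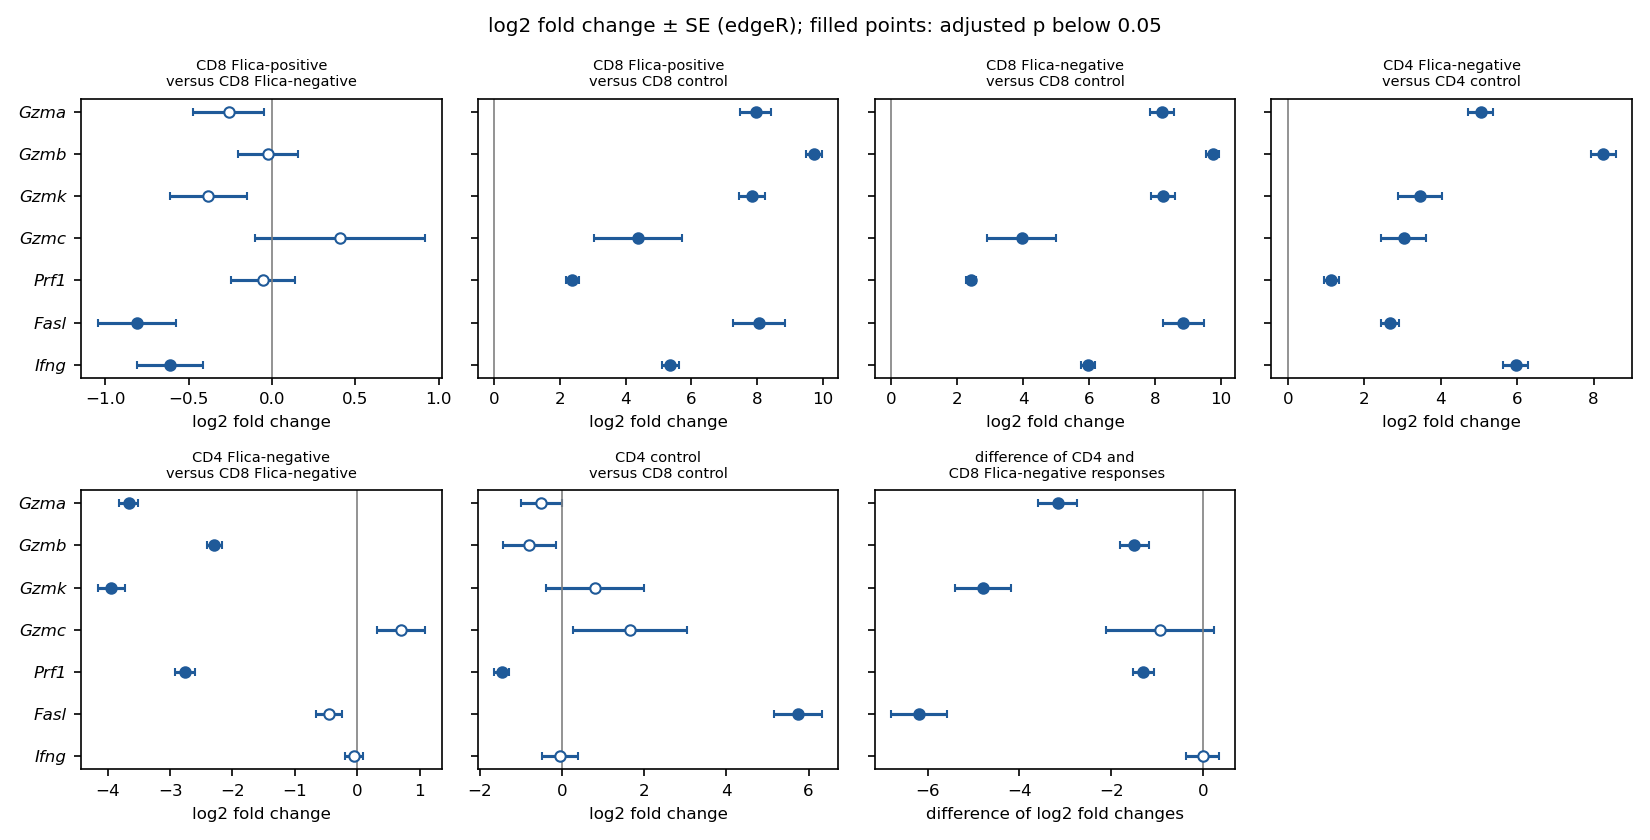
Points give the log2 fold change of each of the 7 genes from edgeR and bars its SE, in 6 comparisons of 3 against 3 libraries and, in the last panel, the CD4 minus the CD8 Flica-negative response. Filled points passed an adjusted p of 0.05; in CD8 Flica-positive against Flica-negative cells these are Fasl (-0.81) and Ifng (-0.61), and under TMM scaling Gzmc (0.41) changes sign there.

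Between CD4 and CD8 Flica-negative cells on day 7, 4 of 7 were lower in CD4 cells and 0 higher by edgeR and by DESeq2 (5 and 0 at an unadjusted p below 0.05), beside 12.7% of 4483 genes that were lower. The 4 are Gzma, Gzmb, Gzmk and Prf1, and their fold differences ran from 4.90 to 15.4. Prf1 is listed only through the comparisons of CD8 cells with controls, and CD8 cells are where it is high, so its place here is a description. Gzmc, also a granule gene, was higher in CD4 cells by estimate and not called (log2 fold change 0.70, edgeR adjusted p 0.217). Whether granule genes differ from the others here was not tested. In the same comparison 11 of 12 neutrophil markers (median log2 fold change -1.78) and 4 of 8 natural killer markers (median -2.39, or -0.94 with genes at 0 set to a floor of 3 counts) were lower in CD4 cells and 0 of either higher by edgeR, which also gave 0 higher at an unadjusted p below 0.05; what these cells contribute was not tested. In the controls 2 of 7 passed in either direction, beside 12.8% of 4322 genes: Prf1 was lower and Fasl higher in CD4 cells. Gzmb was not called there (log2 fold change -0.79, SE 0.64, edgeR adjusted p 0.558) although its ranges did not overlap (13.3 to 36.7 against 40.3 to 51.1), and Gzma, Gzmk, Gzmc and Ifng overlapped.

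Whether the lineages responded differently was tested directly, as the CD4 response minus the CD8 response of Flica-negative cells in a fit of 4 groups. For 5 of 7 genes the CD4 response was smaller, beside 4.6% of 4567 genes with a smaller one. Of these 5, Prf1 passed the authors' limits only in CD8 cells against controls, so its smaller CD4 response is a description. By edgeR, 2 of 8 natural killer, 1 of 6 B cell and 1 of 7 macrophage and monocyte markers had a smaller CD4 response. Of 2 listed plasmacytoid dendritic cell markers, 1 had a smaller and 1 a larger one. The 12 neutrophil markers had a median of -2.16 by edgeR, beside -0.121 over all genes. Of them edgeR called 0 (3 smaller at an unadjusted p below 0.05), and DESeq2 called 2 smaller. Under TMM 1 natural killer marker and 0 of the B cell, macrophage and monocyte or plasmacytoid ones were called smaller. The part of these cells was not tested. The difference was -6.19 for Fasl (SE 0.61, edgeR adjusted p 2.5e-06), -4.79 for Gzmk (SE 0.61, 3.5e-05), -3.17 for Gzma (SE 0.43, 7.8e-05), -1.49 for Gzmb (SE 0.32, 0.0054) and -1.30 for Prf1 (SE 0.23, 0.0011). For Fasl it reflects the control libraries, since the CD4 and CD8 groups overlapped on day 7, while for Gzma and Gzmk the controls overlapped and the day 7 groups did not. Without CD8 control replicate 1 the Fasl difference was -8.03, and without CD4 control replicate 3 that of Gzmk was -3.88. Gzmb lost its call under TMM (-1.49, edgeR adjusted p 0.0636, range over the alternatives 1.9e-05 to 0.0636). Ifng had a difference of -0.0060 (SE 0.35, 95% interval -0.70 to 0.69, edgeR adjusted p 1.0) and Gzmc of -0.94 (SE 1.19, -3.26 to 1.39, edgeR adjusted p 0.685). Without CD8 control replicate 2 the Gzmc difference was -4.20 (edgeR adjusted p 0.0601, range over the alternatives 0.0601 to 1.0).

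On the scale of normalized counts per kb of exon, which allows genes to be compared, the order in CD8 Flica-negative cells was Gzmb (28520), Gzma (21410), Ifng (3682), Prf1 (3223), Gzmk (2012), Fasl (899) and Gzmc (96.1), and only Ifng and Prf1 overlapped as neighbours. In CD8 Flica-positive cells Prf1 (3104) stood above Ifng (2413) without overlap, and the rest of the order was the same, with Gzmb at 28060, Gzma at 17870, Gzmk at 1545, Fasl at 512 and Gzmc at 128. CD4 Flica-negative cells had Gzmb (5816), Ifng (3553), Gzma (1689), Fasl (657), Prf1 (475), Gzmc (157) and Gzmk (130), where Fasl and Prf1 overlapped, as did Gzmc and Gzmk. In CD8 control cells Prf1 (597) was followed by Gzma (72.1) and Ifng (58.9), which overlapped, then by Gzmb (33.1), and Gzmk (6.63), Gzmc (6.01) and Fasl (1.82) came last with overlapping neighbours. In CD4 control cells Prf1 (216) and Fasl (103) led, and the neighbours among Ifng (57.1), Gzma (50.7), Gzmc (19.4), Gzmb (19.1) and Gzmk (11.6) all overlapped.

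Other parts of the killing machinery were read from lists of genes. A list gene can be read only if it passed the authors' limits in at least 1 comparison, and these include day 7 cells against controls. The counts and medians of the lists against controls are therefore descriptions, as for the 7 members. Of 6 other granzymes, Gzmf and Gzmm are in the tables. Gzmf, a neighbour of Gzmc in the granzyme cluster, had no counts in any control library and 59.8, 30.6 and 56.2 normalized counts in CD8 Flica-positive, 0, 15.9 and 25.9 in CD8 Flica-negative and 0, 0 and 11.2 in CD4 Flica-negative libraries. Its Flica-positive libraries were above the Flica-negative ones without overlap, but the difference did not pass (log2 fold change 1.79, SE 1.16, edgeR adjusted p 0.279), and 7.36% of its 50-base windows occur in other granzyme transcripts. Gzmm encodes granzyme M and was called higher on day 7 in CD4 cells (log2 fold change 2.19, SE 0.50, edgeR adjusted p 0.00231) and not in CD8 Flica-negative cells (0.42, SE 0.34, edgeR adjusted p 0.280), a contrast whose own test did not pass (1.77, SE 0.61, edgeR adjusted p 0.0747) though it did by DESeq2. Under TMM Gzmm was called lower in CD8 Flica-positive than Flica-negative cells (-1.53, edgeR adjusted p 0.0394), and without TMM it was not (-0.98, edgeR adjusted p 0.171).

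Of 19 genes of granule biogenesis and exocytosis, 8 are in the tables. Against controls, 7 were higher and 0 lower in CD8 Flica-positive cells (median log2 fold change 1.54, over all genes 2.04), 6 higher and 1 lower in CD8 Flica-negative cells (1.48, over all genes 0.686), and 7 higher and 1 lower in CD4 Flica-negative cells (2.32, over all genes 0.137), where 46.8%, 37.6% and 31.6% of all genes were higher. Nkg7, a granule membrane protein, differed from the granzymes in controls, with 44.7, 105 and 141 normalized counts in CD4 control libraries and 4534, 4470 and 4602 in CD8 control libraries. By day 7 it stood at 7880, 8253 and 6509 in CD4 and 15110, 15830 and 13190 in CD8 Flica-negative libraries, so its CD4 response was larger by 4.57 on the log2 scale (SE 0.36, edgeR adjusted p 4.9e-07), opposite in direction to those of Gzma, Gzmb, Gzmk and Prf1. Ctsw and Cst7 also had larger CD4 responses (by 2.20 and 1.74), as did Srgn (0.88), the proteoglycan that packs granzymes, while Stx11 (-1.73) and Rab27a (-0.95), which serve granule release, had smaller ones. Under TMM the differences of Nkg7, Ctsw, Cst7 and Stx11 passed and those of Srgn (edgeR adjusted p 0.146) and Rab27a (0.113) did not. Under TMM the Flica-positive median against controls became -0.088 and that of all genes 0.388, with 3 of the list higher and 1 lower (Ctsw) beside 27.0% and 35.3% of all genes; the list lay below all genes under both scalings. In the CD8 comparison of label-positive with label-negative cells, 2 of the 8 were higher and 0 lower by edgeR, at an unadjusted p below 0.05 and by DESeq2 (median 0.026, over all genes 0.412, with 21.1% of all genes higher): Ctsh, a cathepsin that myeloid cells also express (log2 fold change 3.41, SE 0.42, edgeR adjusted p 5.3e-05), and Lamp2 (0.81, SE 0.22, edgeR adjusted p 0.0190). Under TMM the median was -0.55 (over all genes -0.14, with 16.5% higher and 10.2% lower), Lamp2 was not called (0.20) and Rab27a was called lower (-0.77, edgeR adjusted p 0.0202).

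Some serpins, which trap proteases, hold granzymes in check, and not every serpin of the list used here is known to do so. Of 7 listed serpins 6 are in the tables, and all 6 were higher than in controls: the median log2 fold change was 5.45 in CD8 Flica-positive cells, 5.0 in their Flica-negative counterparts and 5.55 in CD4 cells, where 5 passed under TMM. Over all genes these medians were 2.04, 0.686 and 0.137, with 46.8%, 37.6% and 31.6% of genes higher. Serpinb9, the inhibitor of granzyme B that protects the killer cell itself, went from 273, 321 and 338 normalized counts in CD8 control to 8749, 9283 and 9140 in CD8 Flica-negative libraries, and from 180, 199 and 156 to 6580, 6761 and 6534 in CD4 cells. Its rise in CD4 cells (log2 fold change 5.22, SE 0.19) was not called different from that in CD8 cells (4.87, SE 0.16; difference 0.35, SE 0.21, edgeR adjusted p 0.309), whereas Gzmb, its target, had a smaller CD4 response. Whether those contrasts differ from each other was not tested. Set against CD8 Flica-negative cells, CD8 Flica-positive cells had changes in this list as well: 3 of the 6 were higher and 0 lower by edgeR (3 and 2 at an unadjusted p below 0.05, 3 and 0 by DESeq2; median 0.18, over all genes 0.412, with 21.1% of genes higher). They were Serpinb1a (2.31), which neutrophils also express, Serpina3f (1.61) and Serpina3g (0.72). Serpinb9, Serpinb9b and Serpinb6b had lower means in Flica-positive cells (6875, 396 and 8342) than in Flica-negative cells (9057, 511 and 11210), without being called. Under TMM the median was -0.42 (over all genes -0.14), with 2 higher and 3 lower beside 16.5% and 10.2% of all genes, Serpinb9 among the lower ones (-0.98, edgeR adjusted p 0.0058) and Serpina3g not called (0.12).

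Around Fas ligand, 6 of 17 other death ligands, receptors and their mediators are in the tables. Of these, 4 were higher and 1 lower in CD8 Flica-positive cells than in controls (median 1.99, over all genes 2.04), and 4 higher and 2 lower in CD8 Flica-negative (2.06, over all genes 0.686) and in CD4 Flica-negative cells (2.17, over all genes 0.137). Of all genes 46.8%, 37.6% and 31.6% were higher in these comparisons. Between the 2 Flica groups of CD8 cells 0 passed in either direction by edgeR, at an unadjusted p below 0.05 or by DESeq2 (median 0.11; under TMM -0.47, where 1 was lower, beside -0.14 and 10.2% over all genes). Against controls TMM left 1 higher and 2 lower in CD8 Flica-positive cells (median 0.36), near the 27.0% higher, 35.3% lower and median of 0.388 over all genes. Lta, a related ligand, was lower on day 7 in CD8 Flica-negative cells (log2 fold change -3.74, SE 0.47) and in CD4 cells (-1.66, SE 0.32).

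Of 16 other genes of the interferon-gamma axis, 9 are in the tables, and 8 were higher and 1 lower in each of the day 7 groups than in controls (medians 2.89 in CD8 Flica-positive, 3.00 in CD8 Flica-negative and 3.45 in CD4 Flica-negative cells; over all genes 2.04, 0.686 and 0.137, with 46.8%, 37.6% and 31.6% of genes higher), with 5 higher and 1 lower in CD8 Flica-positive cells under TMM (median 1.25, over all genes 0.388, with 27.0% higher). Tbx21, which encodes the transcription factor T-bet that drives Ifng, averaged 5404 ± 493 normalized counts in CD8 Flica-negative, 3978 ± 739 in CD4 Flica-negative and 3870 ± 675 in CD8 Flica-positive cells, and 450 ± 77.8 and 118 ± 36.9 in CD8 and CD4 controls. It was lower in Flica-positive than Flica-negative CD8 cells by estimate, without passing (log2 fold change -0.48, SE 0.20, edgeR adjusted p 0.108). Il18r1, a subunit of the receptor for interleukin-18, which caspase-1 activates, was called lower there (-0.65, SE 0.21, edgeR adjusted p 0.0446), and its partner Il18rap was not called (-0.47, SE 0.19, edgeR adjusted p 0.0898). Of the 9, edgeR called 1 higher and 1 lower in Flica-positive cells (1 and 5 at an unadjusted p below 0.05), and DESeq2 1 higher and 4 lower; of all genes edgeR called 21.1% higher and 2.72% lower. Under TMM 8 of the 9 were called lower in Flica-positive cells, beside 10.2% of all genes (list median -0.99 and all-gene median -0.14; without TMM -0.41 and 0.412), Tbx21 (-1.07, edgeR adjusted p 0.00803), Il18r1 (-1.24, 0.00564) and Il18rap (-1.06, 0.00399) among them. Ifngr2, a subunit of the interferon-gamma receptor, was higher in Flica-positive cells (2.98, SE 0.59, edgeR adjusted p 0.00238) and lower in all day 7 groups than in controls. Il2ra shared the control pattern of Fasl, with 980, 763 and 934 normalized counts in CD4 control and 32.6, 23.3 and 5.77 in CD8 control libraries.

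The genes most like each member were ranked by Pearson correlation of log2 normalized counts over the 15 libraries, among genes with a symbol and a mean of at least 100. The libraries fall into groups, so these values describe shared group patterns. The nearest genes were Pik3ap1 (0.990), Acadl (0.989) and Lrrk1 (0.986) for Gzma, and Anxa2 (0.997), Efhd2 (0.997) and Chit1 (0.994) for Gzmb. Gzmk was nearest to Epha3 (0.982), Gzma (0.982) and Acadl (0.974), and was the one member with another member among its nearest 3. For Gzmc they were Casp4 (0.953), Srxn1 (0.947) and Ell2 (0.945), for Prf1 Cd160 (0.971), Ccl5 (0.952) and Wdr95 (0.925), for Fasl Il2ra (0.979), Ptpn3 (0.972) and Epas1 (0.970), and for Ifng Gna15 (0.994), Gng2 (0.992) and Dpysl3 (0.992). By Spearman correlation only Cd160 for Prf1 remained among the nearest 3.

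Promoters from RefSeq (GRCm38.p6, 250 bases before to 50 after the start) were matched for 7 of 7 genes. They were searched on both strands for the T-box core GGTGTG, bound by T-bet and Eomes, the AP-1 site TGANTCA, the Runx core TGTGGT and the GAS element TTCNNNGAA, bound by STAT proteins. Of 32851 promoters of this length, 19.0%, 7.81%, 16.8% and 8.30% hold these. The Runx core was found in 4 members (Gzma, Gzmb, Gzmc and Prf1), the T-box core in 3 (Gzmk, Gzmc and Fasl), the GAS element in 2 (Gzmb and Ifng) and the AP-1 site in 1 (Gzmb), and no matches overlapped. The sequences of 4 promoters are shown because these genes carry the contrasts above: Gzmb with the smallest p against controls, Prf1 with the highest level per kb in controls, and Fasl and Ifng with the lower level in Flica-positive cells. They are at chr14:56262285-56262584 (Gzmb, minus strand), chr10:61297586-61297885 (Prf1, plus strand), chr1:161788446-161788745 (Fasl, minus strand) and chr10:118440796-118441095 (Ifng, plus strand), each read 5′ to 3′ along its gene. Capitals mark the matches: Runx, AP-1, Runx and GAS in that order in Gzmb, Runx in Prf1 (reverse strand), the T-box core in Fasl (reverse strand) and GAS in Ifng. A match is a run of letters; binding was not measured.
Gzmb: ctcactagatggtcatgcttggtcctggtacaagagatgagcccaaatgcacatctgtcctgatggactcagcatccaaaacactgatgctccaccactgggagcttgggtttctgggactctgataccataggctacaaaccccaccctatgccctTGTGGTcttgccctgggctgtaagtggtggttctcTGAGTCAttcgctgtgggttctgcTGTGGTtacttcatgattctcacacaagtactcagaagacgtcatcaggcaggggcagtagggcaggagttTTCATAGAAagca
Prf1: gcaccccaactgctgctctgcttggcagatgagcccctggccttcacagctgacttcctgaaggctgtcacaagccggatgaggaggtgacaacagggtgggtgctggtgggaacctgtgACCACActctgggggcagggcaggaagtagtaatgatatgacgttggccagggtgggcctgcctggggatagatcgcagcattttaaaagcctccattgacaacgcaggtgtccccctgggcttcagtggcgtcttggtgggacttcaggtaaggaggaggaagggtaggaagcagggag
Fasl: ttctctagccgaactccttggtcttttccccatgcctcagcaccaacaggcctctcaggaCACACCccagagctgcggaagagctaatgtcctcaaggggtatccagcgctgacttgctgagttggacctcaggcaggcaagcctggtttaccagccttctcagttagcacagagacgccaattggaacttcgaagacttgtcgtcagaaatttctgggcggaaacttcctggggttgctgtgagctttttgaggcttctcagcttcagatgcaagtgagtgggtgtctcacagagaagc
Ifng: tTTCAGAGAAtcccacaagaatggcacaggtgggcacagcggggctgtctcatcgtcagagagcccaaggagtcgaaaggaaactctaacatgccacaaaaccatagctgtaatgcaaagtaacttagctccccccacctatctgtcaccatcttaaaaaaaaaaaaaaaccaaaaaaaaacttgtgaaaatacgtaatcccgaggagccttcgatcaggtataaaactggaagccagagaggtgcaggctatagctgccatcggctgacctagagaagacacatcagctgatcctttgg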

How the data were processed

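Messenger RNA of 15 libraries, 3 in each of 5 groups of sorted splenic T cells, was measured by paired-end sequencing. The count values, whole reads per gene and library, were deposited by the authors in 4 tables, each holding only genes that passed their limits in 1 comparison; their notes name STAR 2.7.1a, DESeq2 and GRCm38, and no counting tool or annotation. The signal values (mean normalized counts) in the same deposited tables were computed by the authors as the mean over 15 libraries of counts divided by size factors, from which the factors were recovered (largest relative error 5.8e-15). The tables also hold the authors' log2 fold changes, p and adjusted p, which were not used, nor were their enrichment tables.

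The 4567 listed genes were fitted with the edgeR 4.0.16 quasi-likelihood test (R 4.3.3, limma 3.58.1), 3 against 3 libraries, with recovered size factors and Benjamini-Hochberg adjustment over all listed genes with a count; the threshold was 0.05, and an SE is the log2 fold change over the square root of F. Since the authors selected the genes on the same libraries, these p are not independent evidence. The difference of responses was an interaction over 12 libraries. The workflow was tested on simulated data. Alternatives were DESeq2 1.42.0, TMM factors, a mean of at least 10, all libraries in 1 fit, replicate number as a block, and leaving out each library in turn; counts per Cd8a and the lists under other scalings were added after the data had been seen. Levels are normalized counts, per kb with GENCODE M21 exon lengths, and correlations use log2 of normalized counts plus 1. Python 3.11.15, numpy 2.4.6, pandas 2.3.3, scipy 1.17.1 and matplotlib 3.10.9 were used.

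Whether equal replicate numbers mark pairs is not stated. Correlations of same-number deviations for CD8 Flica-positive and Flica-negative libraries were 0.108, 0.0323 and 0.0606 over all 4567 genes, and 0.301, 0.135 and 0.22 over the 1701 with a mean of at least 100. With that minimum they were 0.334, 0.138 and 0.182 between the controls and 0.364, 0.0931 and 0.505 between day 7 CD4 and CD8 cells, and at most 0.0359 between day 7 cells and controls, so the unpaired fit is reported with the block beside it.

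The members, the genes of 5 lists and cell type markers are named, with the 3 genes most like each member. The lists are other granzymes, granule biogenesis and exocytosis, serpins taken as granzyme inhibitors, death ligands and receptors, and interferon-gamma axis. Members and lists were chosen with earlier results of these data known.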

Additional observations from a re-analysis of the deposited data

Results flagged for a closer look

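The CD4 and CD8 responses of Flica-negative cells, each against its own control, differed by the interaction test for 5 of the 7 genes, with the smaller response in CD4 cells: Gzma by -3.17 (SE 0.43, edgeR adjusted p 7.8e-05), Gzmb by -1.49 (SE 0.32, 0.0054), Gzmk by -4.79 (SE 0.61, 3.5e-05), Prf1 by -1.30 (SE 0.23, 0.0011) and Fasl by -6.19 (SE 0.61, 2.5e-06). Over the alternatives the adjusted p of Gzmb, from edgeR or DESeq2, ran from 1.9e-05 to 0.0636, and it missed the threshold under TMM. The Fasl value was -8.03 without CD8 control replicate 1, and the Gzmk value -3.88 without CD4 control replicate 3. Prf1 passed the authors' limits only in CD8 cells against controls, so its value is a description. No explanation of these differences was tested.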

How the results depend on the processing

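Over all members, comparisons and alternatives, 545 values kept their direction and side of the threshold, 15 lost the threshold, 4 gained it and 17 changed sign, all 17 between values that were not called. All 7 genes passed against controls in CD8 and CD4 Flica-negative cells under every alternative, and 2 passed between the controls.

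Between CD8 Flica-positive and Flica-negative cells the 2 called genes became 4 under TMM, 0 with all libraries in 1 edgeR fit (2 at an unadjusted p below 0.05, 2 by DESeq2) and 0 to 1 when a library was left out. The count was 6 for Flica-positive cells against controls under TMM and 6 to 7 with a library left out. Between day 7 CD4 and CD8 cells it was 5 with the replicate block (Fasl -0.46, edgeR adjusted p 0.0018; 0.0018 to 0.438 over the alternatives) and 4 to 5 with a library left out. For the difference of responses it was 4 under TMM.

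Signs changed under TMM for Gzmc between the CD8 Flica groups (-0.10) and Ifng between day 7 lineages (0.030), and with the block for the Ifng difference (0.034). With a library left out, Gzmb ran from -0.13 to 0.061 and Prf1 from -0.13 to 0.049 between the CD8 Flica groups. Ifng ran from -0.11 to 0.016 between day 7 lineages, from -0.52 to 0.21 between controls and from -0.27 to 0.47 in the difference, and Gzmk from -0.10 to 1.24 between controls. The cause was not tested. Low counts limit Gzmc and, in CD8 controls, Fasl (12 counts).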
